A study of Mus musculus with 2 samples.

Results

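Mature neutrophils of the mouse lung at postnatal day 3 were taken from a single-cell library as the cells that carried the transcripts of circulating neutrophils and few transcripts of the secondary granules. A member had mitochondrial genes at 10% of its total or less, a value above 0 for at least 3 of Cxcr2, Csf3r, Il1r2, Asprv1, Il1b and G0s2, and S100a8 at 20 or more. The summed value of Camp, Ngp and Ltf was below 20, and Cd3e, Cd79a, Pecam1 and Col1a2 were at 0. Of 11306 deposited cells, 10660 passed the mitochondrial limit and 814 were members. The members' share among kept cells was 7.64%, with an exact (Clopper-Pearson) 95% interval of 7.14% to 8.16%. Immature neutrophils were the 240 cells that met the same conditions with Camp, Ngp and Ltf summing to 20 or more. The members were thus 77.2% of all 1054 neutrophils (74.6% to 79.7%), a share that the limit on the granule genes sets. A further 2 sets serve as references: 975 Csf1r-positive myeloid cells, which had S100a8 below 20, and all 9606 other kept cells.

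The library came from sorted cells of wild-type peripheral lung and was made with 10x Chromium 3′ v3 chemistry. The only other sample of the series was prepared in bulk from PDGFRA+ cells of Pdgfra-H2BGFP mice of the same age. Each group is 1 sample, with no statement on pooled animals, so no difference was tested and no p-value is given. Intervals on shares of cells cover counting error only.

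Neutrophils are made in the bone marrow, and in the newborn also in the liver, from myeloid progenitors. During maturation they fill granules in sequence: azurophil granules with proteases first, then the specific granules with lactoferrin and cathelicidin, then gelatinase granules. Transcription of the granule genes is shut down as the cells mature, while receptors for chemokines and growth factors, and the capacity to make cytokines, are gained. In the lung mature neutrophils patrol the capillary bed and are the first phagocytes to reach a site of infection.

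The deposited single-cell values are whole numbers, but the totals of all cells spanned only 1.79-fold, so they were treated as UMI values corrected for depth and not as raw counts. A class level here is the summed value of a gene over the cells of the class, expressed per 1000000 (CPM). For a log2 ratio, 1 CPM was added to each class level. The members had a median of 1006 detected genes, immature neutrophils 1240.5 and Csf1r-positive myeloid cells 2432. The corrected values carry a trace of depth: of a member's values above 0, a median of 23.8% were exactly 1, against 65.1% in immature neutrophils and 64.9% in Csf1r-positive myeloid cells. Only 189 members (23.2%) reached 50% or more, against 200 immature neutrophils (83.3%). These cells are called deeper below, and selected values in them are given beside the results. Deeper members also held more cells with monocyte or macrophage markers, as given below, so they differ from the other members in more than depth.

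**Figure D1:**
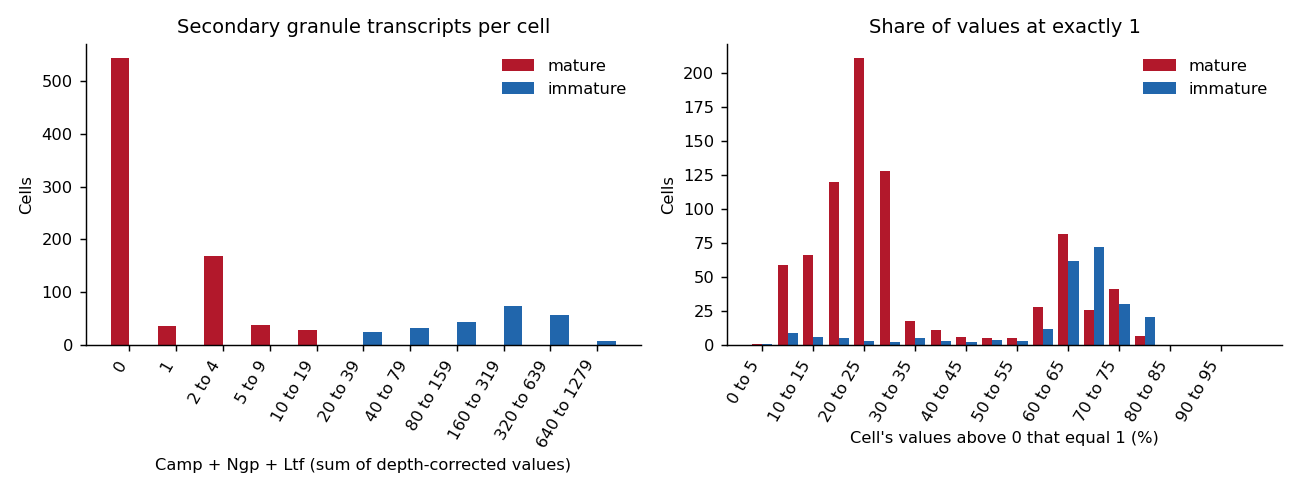
Left, number of cells (y axis) by the summed value of Camp, Ngp and Ltf (x axis, unequal bins), and right, by the percent of the cell's values above 0 that equal 1, for mature (red) and immature (blue) neutrophils. Of the 814 mature cells 543 lie at a granule sum of 0, and most mature cells lie under 50% on the right, where 40 immature cells lie.

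Neutrophil genes inside and outside the rule were set against the label. All 6 marker genes were above 0 in 257 members, 5 in 317, 4 in 178 and 3 in 62. Csf3r, the receptor of granulocyte colony-stimulating factor, stood at 813 CPM in mature neutrophils, 238 CPM in immature neutrophils and 50.2 CPM in Csf1r-positive myeloid cells. Cxcr2, the receptor for the ELR chemokines that call neutrophils into tissue, stood at 399, 259 and 7.09 CPM in the same order. Il1r2, the decoy receptor of interleukin-1, stood at 552 CPM in mature neutrophils, 342 CPM in immature neutrophils and 32.5 CPM in Csf1r-positive myeloid cells. Asprv1, an aspartic protease gene, stood at 1972, 992 and 29.2 CPM, and G0s2, an inhibitor of triglyceride lipase, at 2758, 1696 and 50.7 CPM, again in that order. In deeper cells Csf3r stood at 483 CPM in mature and 232 CPM in immature neutrophils, and Cxcr2 (258 and 246 CPM) and Asprv1 (932 and 914 CPM) were near level. Il1r2 and G0s2 stood lower there in the members, at 272 and 1390 CPM, against 352 and 1624 CPM in immature neutrophils. These genes chose the members, so their levels only describe them.

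Among the genes that the rule did not use, S100a9, whose protein forms calprotectin with that of S100a8, was the most abundant gene of the members. It was above 0 in 99.8% of members, with a median value of 260 per cell, against a median of 793.5 in immature neutrophils, and 63.9% of Csf1r-positive myeloid cells also had a value. Mmp9, the gelatinase of the tertiary granules, stood at 548 CPM in mature neutrophils, 842 CPM in immature neutrophils and 8.48 CPM in Csf1r-positive myeloid cells. Ly6g, which encodes the surface antigen used to sort mouse neutrophils, was low in the members: 43.5 CPM, with a value in 10.1% of cells (8.09% to 12.3%), against 435 CPM and 79.6% of cells (73.9% to 84.5%) in immature neutrophils. In Csf1r-positive myeloid cells Ly6g was at 0.346 CPM. Retnlg, a resistin-like secreted protein gene, was above 0 in 66.0% of members and 96.7% of immature neutrophils. The full list of 12 mature neutrophil markers, rule genes included, summed to 125074 CPM in mature and 258538 CPM in immature neutrophils. In Csf1r-positive myeloid cells it summed to 2251 CPM. Mxd1, also on that list and outside the rule, is not given singly here, so the genes above are not all of its members.

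Markers of other cell types were not absent. The 11 monocyte or macrophage markers summed to 673 CPM in mature neutrophils, against 341 CPM in immature neutrophils and 3183 CPM in Csf1r-positive myeloid cells, and no marker of this list was at 0 in the members. In 70 members (8.60%) at least 4 of the 11 were above 0, and these cells had Lyz2 at 15039 CPM, Plac8 at 2417 CPM and Apoe at 2351 CPM, against 4232, 370 and 664 CPM in the other 744 members. They also carried Csf3r at 415 CPM and Cxcr2 at 192 CPM. Both are genes of the rule, so these levels only describe how the cells were chosen. Of these 70 cells 67 were among the 189 deeper members, and 26 of the 27 predicted doublets among all members were deeper too. Among the 240 immature neutrophils 24 cells also had 4 or more of the markers. The part of such cells in each result was not tested. Leaving out these 70 and 24 cells gave 1259 genes higher and 276 lower than in immature neutrophils, where the full set gave 1186 and 241. Fewer cells also change which genes reach the minimum sum, so these counts are not compared as shares. Epithelial Sftpc, the surfactant protein C gene, had a value in 97.9% of members at a median of 5 per cell, and 6 members held 50.5% of its summed value. Lymphocytes also had a median of 3 for this gene. The 4 epithelial markers together summed to 2603 CPM in mature neutrophils and 1767 CPM in immature neutrophils. The 4 fibroblast markers summed to 108 CPM in mature and 37.7 CPM in immature neutrophils, with values in 28.5% of members, although Col1a2 was at 0 by the rule. The 5 basophil or mast cell markers summed to 51.6 CPM in mature and 5.17 CPM in immature neutrophils, none was at 0 in the members, and 0.983% of members had a value. The 4 platelet markers summed to 29.1 CPM in mature and 13.3 CPM in immature neutrophils, with values in 3.07% of members and with Ppbp and Gp9 at 0. The erythroid list summed to 1.77 CPM in mature neutrophils, with Hba-a2, Hbb-bt and Alas2 at 0, and to 5.91 CPM in immature neutrophils. The dendritic list also summed to 1.77 CPM in mature neutrophils, with Clec9a, Cd209a and Siglech at 0, and to 1.48 CPM in immature neutrophils.

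Cells lay on both sides of each limit of the rule. The 28 members with a granule sum of 10 to 19 had Lcn2 at 2513 CPM, Retnlg at 25451 CPM and Il1b at 2804 CPM. The 24 immature cells with a sum of 20 to 39 had 3300 CPM, 29342 CPM and 2045 CPM for the same genes. The 75 members with S100a8 between 20 and 39 had Csf1r at 323 CPM and Lyz2 at 8522 CPM, and the 38 cells just under the limit, at 10 to 19, had 315 and 6191 CPM. The 62 members with 3 of the 6 marker genes had Retnlg at 3201 CPM, Asprv1 at 1547 CPM and Lyz2 at 8098 CPM, with a median of 1027.5 detected genes. The 21 cells with only 2 of them had 81.9, 32.7 and 18214 CPM for the same genes, with a median of 2302 detected genes.

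Set against immature neutrophils, the members had 1186 of 8553 tested genes higher by a log2 ratio of 1 or more (13.9%) and 241 lower by as much (2.82%), with a median log2 ratio of 0.34 over all tested genes. The division of the 2 classes was made on Camp, Ngp and Ltf of these same cells, so these counts describe the division and nothing is read from them. S100a8, S100a9 and the 3 granule genes hold much of the total in immature cells. With these 5 genes left out of the scaling total, 646 genes were higher (7.55%) and 453 lower (5.3%), and the median of all genes shifted by -0.28. Directions below are given with that shift in mind. With deeper cells alone, 3090 of 7263 tested genes were higher (42.5%) and 161 lower (2.22%), with a median of 0.87. The deeper members had a median of 2202 detected genes, against 1387.5 in the deeper immature cells.

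**Figure D2:**
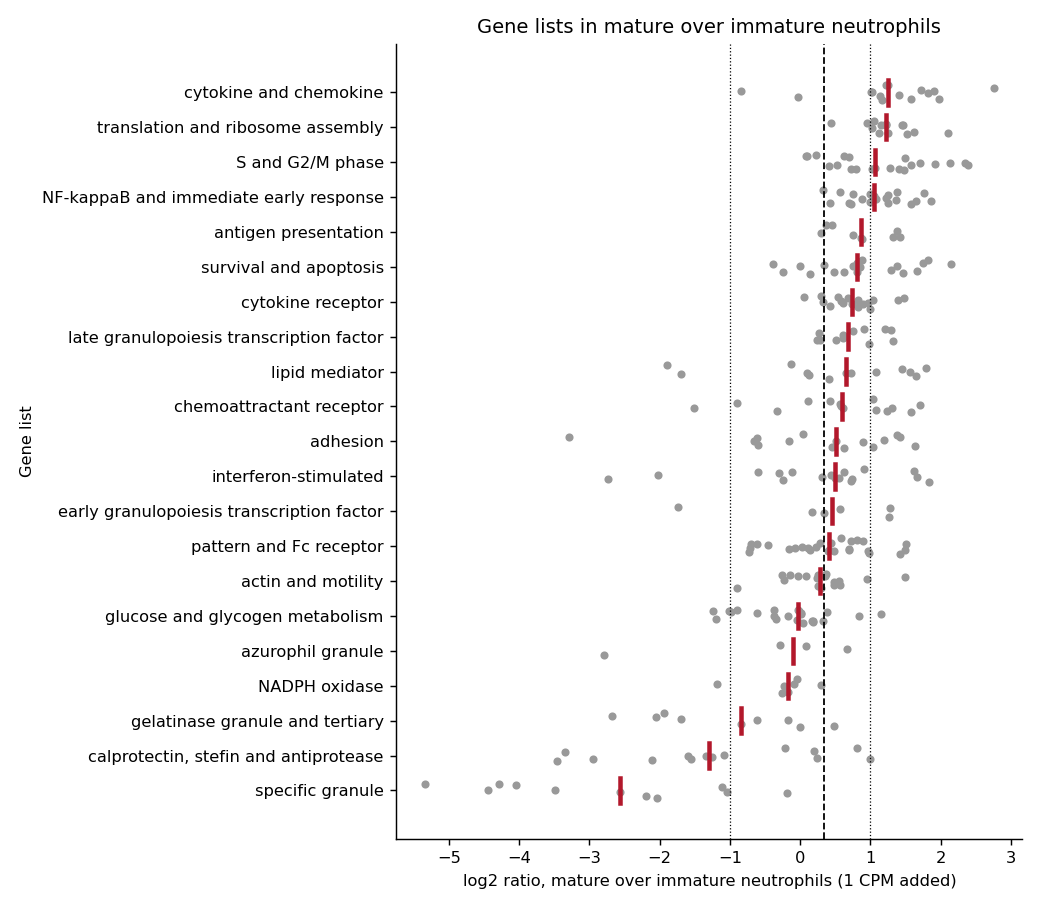
Each grey point is 1 tested gene of a list (y axis), at its log2 ratio of mature over immature neutrophils (x axis, 1 CPM added). Red bars mark list medians, the dashed line marks the median of all tested genes (0.34) and dotted lines mark 1 and -1. The 3 lists of granule, calprotectin and stefin genes lie left, with medians of -0.84, -1.30 and -2.56, and the cytokine list lies furthest right.

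Specific granule genes were lower in the members. Of 11 tested genes outside the rule 10 were lower and 0 higher, where 2.82% and 13.9% of all tested genes were, and the list median was -2.56 (-2.73 in deeper cells). Lcn2, the siderophore-binding lipocalin, stood at 414 CPM in mature neutrophils and 9030 CPM in immature neutrophils, a log2 ratio of -4.44. It had a value in 36.1% of members (32.8% to 39.5%) and in 99.6% of immature cells (97.7% to 100%). Orm1, an acute-phase plasma protein gene, was at 1.01 CPM in mature neutrophils and 80.5 CPM in immature neutrophils. Chil3, a chitinase-like lectin, was at 44.0 CPM in mature and 879 CPM in immature neutrophils, and Cd177, a surface glycoprotein of neutrophils, at 25.8 and 441 CPM in that order. Fcnb, a ficolin of the lectin complement pathway, was at 3.03 CPM in mature and 44.3 CPM in immature neutrophils. Hp, the haptoglobin gene, was the exception at 1716 CPM in mature and 1948 CPM in immature neutrophils. The gelatinase list had 4 of 9 genes lower and 0 higher. Mmp8, neutrophil collagenase, was at 238 CPM in mature and 989 CPM in immature neutrophils, and Padi4, the enzyme that citrullinates histones, at 8.85 and 62.1 CPM. The azurophil list had 1 of 4 tested genes lower, Serpinb1a, at 29.6 CPM in mature and 211 CPM in immature neutrophils.

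The calprotectin, stefin and antiprotease list had 9 of 14 genes lower and 0 higher, beside 2.82% and 13.9% of all tested genes. The list median was -1.30. In deeper cells the median was -2.14, with 9 of 14 lower and 2 higher, beside 2.22% and 42.5%. S100a9 stood at 61314 CPM in mature neutrophils and 130485 CPM in immature neutrophils. BC100530, a stefin A gene encoding an inhibitor of cysteine proteases, stood at 12113 CPM in mature and 52143 CPM in immature neutrophils, and Stfa3 at 980 and 10831 CPM in that order. Stefin genes are paralogs that lie together on mouse chromosome 16. The last 300 transcript bases of Stfa1 and BC100530 were identical at 98.7% of positions, so reads of single stefin genes may be split between them and the values of single members are uncertain. Stfa2l1, BC100530 and Gm5483 each had a value in 785 members, of which 755 had a value for all 3.

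Cytokine and chemokine genes were higher in the members. Of 15 tested genes outside the rule 13 were higher and 0 lower, beside 13.9% of all tested genes, and the median was 1.25. In deeper cells 8 of 13 were higher and 1 was lower, beside 42.5% and 2.22%. With the 5 abundant genes left out of the total 7 of 15 were higher and 1 was lower, beside 7.55% and 5.3%. Cxcl2, a ligand of Cxcr2, stood at 3756 CPM in mature neutrophils and 1134 CPM in immature neutrophils, with a value in 90.8% of members and 72.9% of immature cells. Ccl6, a CC chemokine of myeloid cells, stood at 2275 CPM in mature and 578 CPM in immature neutrophils, and at 1684 and 533 CPM in deeper cells. Csf1, the growth factor of macrophages, stood at 174 CPM in mature and 45.8 CPM in immature neutrophils. In deeper cells the log2 ratios of Cxcl2 and Csf1 were 0.97 and 0.95. Ccl4, a CC chemokine, had the highest ratio of the list, at 151 CPM in mature and 21.4 CPM in immature neutrophils, and it was uneven: 11.3% of members had a value and the largest was 91. Il1b, a gene of the rule, stood at 5941 CPM in mature and 1613 CPM in immature neutrophils and was above 0 in 99.5% of members and 83.3% of immature cells. In deeper cells it stood at 3262 CPM in mature and 1584 CPM in immature neutrophils.

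In the list of the NF-kappaB and immediate early response 12 of 21 genes were higher and 0 lower, beside 13.9% and 2.82% of all tested genes, with a list median of 1.06. In deeper cells 9 of 20 were higher, beside 42.5%, and the list median of 0.85 stood next to 0.87 for all tested genes. With the other scaling 6 of 21 were higher, beside 7.55%. NF-kappaB is the family of transcription factors that inflammatory signals release from their inhibitor, and several of its targets feed back on it. Nfkbia, that inhibitor, stood at 5174 CPM in mature neutrophils and 1987 CPM in immature neutrophils, a log2 ratio of 1.38 over all cells and 0.45 in deeper cells. Btg1, an antiproliferative gene, stood at 3167 CPM in mature and 1056 CPM in immature neutrophils, and Dusp1, a phosphatase of MAP kinases, at 685 and 200 CPM. Among survival and apoptosis genes 7 of 19 were higher and 0 lower, beside 13.9% and 2.82%, with 6 of 19 higher under the other scaling, beside 7.55%. In deeper cells 8 of 19 were higher, beside 42.5%. Gadd45b, a stress-response gene, stood at 1780 CPM in mature and 403 CPM in immature neutrophils (783.8 and 406.7 CPM in deeper cells). Mcl1, which keeps neutrophils alive, stood at 2728 and 1113 CPM in that order (a log2 ratio of 0.55 in deeper cells), and Pim1, a kinase induced by cytokine signals, at 1790 and 507 CPM.

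The promoters of 3 genes show the letters searched for in these 2 sets of genes. The windows hold up to 250 bases before the start given by RefSeq on GRCm38.p6, ending before any annotated exon. Capitals mark the motifs: TTGCNNAA, as bound by C/EBP factors, and GGG followed by 2 free bases, TT, 1 free base and CC, as bound by NF-kappaB, each on either strand. They are shown because Fcnb is lower in the members and Cxcl2 and Nfkbia are higher. The Fcnb window lies at chr2:28084886-28085128 on the minus strand, that of Cxcl2 at chr5:90903649-90903870 on the plus strand and that of Nfkbia at chr12:55492648-55492897 on the minus strand.
Fcnb: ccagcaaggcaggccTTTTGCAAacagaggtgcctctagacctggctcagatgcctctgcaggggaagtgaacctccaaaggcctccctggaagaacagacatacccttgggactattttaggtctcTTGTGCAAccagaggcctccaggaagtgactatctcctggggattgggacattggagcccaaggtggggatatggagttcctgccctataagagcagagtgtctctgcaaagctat
Cxcl2: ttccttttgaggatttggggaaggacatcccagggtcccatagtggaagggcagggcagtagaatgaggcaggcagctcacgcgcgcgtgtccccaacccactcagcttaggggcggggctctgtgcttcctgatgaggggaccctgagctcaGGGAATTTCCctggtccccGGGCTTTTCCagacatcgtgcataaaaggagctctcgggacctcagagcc
Nfkbia: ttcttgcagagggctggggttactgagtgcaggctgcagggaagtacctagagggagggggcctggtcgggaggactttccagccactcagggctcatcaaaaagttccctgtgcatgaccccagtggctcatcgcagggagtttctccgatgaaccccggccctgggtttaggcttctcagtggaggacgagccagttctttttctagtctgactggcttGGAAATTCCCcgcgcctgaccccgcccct
The C/EBP letters occurred in 9.55% of the 27025 gene promoters of the table, and the NF-kappaB letters in 4.0%. Of the 9 lower specific granule genes with a promoter, 3 held the C/EBP letters (Anxa1, Fcnb and Lcn2) and 2 the NF-kappaB letters (Olfm4 and Pglyrp1). Of the 29 higher genes of the cytokine, NF-kappaB and survival lists with a promoter, 5 held the NF-kappaB letters (Csf1, Cxcl2, Cxcl3, Mcl1 and Nfkbia) and 0 the C/EBP letters. These are matches of letters and not sites shown to be bound.

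Receptors were mixed. Of 14 chemoattractant receptors outside the rule 6 were higher and 1 lower, beside 13.9% and 2.82% of all tested genes. Under the other scaling 3 were higher and 2 lower, beside 7.55% and 5.3%. In deeper cells 3 of 13 were higher and 1 lower, beside 42.5% and 2.22%. Ccrl2, an atypical receptor that binds chemerin, stood at 3450 CPM in mature neutrophils and 1158 CPM in immature neutrophils. Cxcr4, the receptor that holds neutrophils in the marrow, stood at 145 CPM in mature and 57.6 CPM in immature neutrophils, and Hcar2, a receptor of hydroxybutyrate, at 393 and 120 CPM. Ltb4r1, the receptor of leukotriene B4, was lower at 172 CPM in mature and 492 CPM in immature neutrophils. In deeper cells the log2 ratios were 0.62 for Ccrl2, 0.84 for Hcar2 and -0.67 for Ltb4r1. In the adhesion list 5 of 15 genes were higher and 1, Ly6g, was lower, beside 13.9% and 2.82% of all tested genes. Under the other scaling 3 were higher and 1 lower, beside 7.55% and 5.3%. In deeper cells 5 of 15 were higher and 2 lower, beside 42.5% and 2.22%. Of 27 pattern and Fc receptors 3 were higher and 0 lower, beside 13.9% and 2.82% of all tested genes. These were Clec4d, a C-type lectin (810 CPM in mature and 302 CPM in immature neutrophils), Nlrp3, an inflammasome sensor (1086 and 380 CPM), and Cd300ld (303 and 106 CPM). In deeper cells the log2 ratios of Clec4d and Nlrp3 were 0.70 and 0.85, and 4 of the 27 were higher and 1 lower, beside 42.5% and 2.22%. Under the other scaling 3 of the 27 were higher and 3 lower, beside 7.55% and 5.3%.

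Of 6 early transcription factors of granulopoiesis 2 were higher and 1 lower, beside 13.9% and 2.82% of all tested genes. The higher ones were Cebpa (10.4 CPM in mature and 3.69 CPM in immature neutrophils) and Runx1 (111 and 45.8 CPM). Cebpa had a value in only 3.93% of members and 2.08% of immature neutrophils. Csf1r-positive myeloid cells had Cebpa at 61.6 CPM and Runx1 at 355 CPM, and in deeper cells the log2 ratios of mature over immature were 2.30 and 2.13. The lower one, Cebpe, the factor of the secondary granule stage, stood at 42.2 CPM in mature neutrophils and 143 CPM in immature neutrophils. Of 12 late factors 3 were higher and 0 lower, beside the same shares of all tested genes. Under the other scaling 1 early and 1 late factor were higher, beside 7.55%. In deeper cells 4 of 6 early and 2 of 12 late factors were higher, beside 42.5%. Cebpb and Junb stood at 4589 and 2662 CPM in mature neutrophils and at 1980 and 1068 CPM in immature neutrophils, with log2 ratios of 0.83 and 0.77 in deeper cells. Cybb, the catalytic subunit of the phagocyte NADPH oxidase, was at 366 CPM in mature and 834 CPM in immature neutrophils. Its log2 ratio was -1.19 over all cells. In deeper cells it stood at 910 and 863 CPM, a ratio of 0.075. Of the deeper members 35.45% had 4 or more monocyte or macrophage markers, against 11% of deeper immature cells and 0.48% of the other members. Csf1r-positive myeloid cells had Cybb at 1162 CPM. Deeper cells thus differed in such cells as well as in depth, and the part of each was not tested. Cyba, the partner of Cybb in the membrane, was at 2124 CPM in mature and 2186 CPM in immature neutrophils. Interferon-stimulated genes were mixed, with 3 of 17 higher and 2 lower, beside 13.9% and 2.82% of all tested genes. In deeper cells 6 of 14 were higher and 2 lower, beside 42.5% and 2.22%. Ifitm1 stood at 447 CPM in mature and 124 CPM in immature neutrophils, and Ifitm6 at 239 CPM and 1597.5 CPM in that order.

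Genes of translation and of S and G2/M phase also had higher ratios. Of 14 translation genes 12 were higher, beside 13.9% of all tested genes, with a median of 1.22. In deeper cells 14 of 14 were higher, beside 42.5%, with a median of 1.59. Under the other scaling 5 of 14 were higher, beside 7.55%. Of the 14 genes 6 belong to genes whose values were mostly 1 in the 625 members that are not deeper. Among all 249 tested genes of that kind 164 were higher in the members and 0 lower, with a median log2 ratio of 1.17 over all cells and 1.14 in deeper cells. Of the 15 genes with the highest ratios at 50 CPM or more 11 were of this kind, Hmgn1 and Prdx2 among them. The other 4 were Ccl4, Gadd45b, Cd101 and the histone gene Hist1h2bc. Among the 21 genes of S and G2/M phase 12 were higher, beside 13.9% of all tested genes. In deeper cells 13 of 17 were higher, beside 42.5%, and under the other scaling 10 of 21, beside 7.55%. The cell cycle genes Tpx2, Ccnb2 and Cenpf stood at 8.09, 13.1 and 13.9 CPM in mature neutrophils, against 0.739, 2.22 and 2.96 CPM in immature neutrophils. They had values in 1.97%, 3.32% and 3.56% of members and in 0.417%, 1.25% and 1.67% of immature neutrophils, where no value was above 1. These levels lie near the floor, so no difference is read from these 3 genes. In deeper members, which hold 26 of the 27 predicted doublets, they stood at 12.6, 29.7 and 24.3 CPM. The source of these values was not tested. Of the 23 genes of glucose metabolism 1 was higher and 3 were lower, beside 13.9% and 2.82%, with a median of -0.03. Under the other scaling 0 were higher and 5 lower, beside 7.55% and 5.3%, with a median of -0.33. Of the 18 actin genes 1 was higher and 0 lower, beside 13.9% and 2.82%, with a median of 0.28. For them the other scaling gave 1 higher and 1 lower, beside 7.55% and 5.3%, with a median of -0.02.

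**Figure D3:**
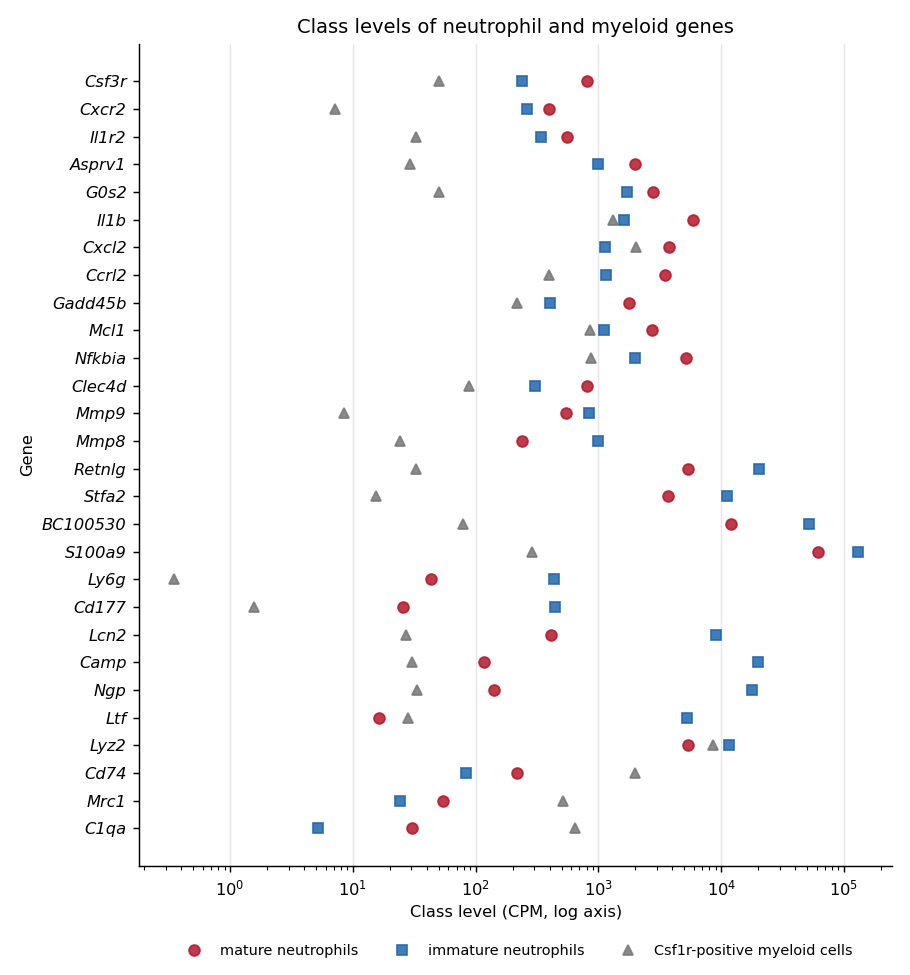
Class level (x axis, CPM on a log axis) of 28 genes (y axis) in mature neutrophils (red circles), immature neutrophils (blue squares) and Csf1r-positive myeloid cells (grey triangles). Mature neutrophils lie furthest right for Il1b (5941 CPM), and immature neutrophils lie furthest right for the granule, stefin and calprotectin genes.

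Against Csf1r-positive myeloid cells, 599 of 11027 tested genes were higher in the members (5.43%) and 5342 lower (48.4%), with a median log2 ratio of -0.96 over all tested genes. With deeper cells alone 449 of 10576 tested genes were higher (4.25%) and 1574 lower (14.9%), with a median of -0.34. Csf1r and S100a8 set the 2 classes apart, so their values are a description. The limit on S100a8 also bears on S100a9, the gene of its calprotectin partner, so the ratio of S100a9 is a description too. Stefins and calprotectin led: Stfa2 stood at 3702 CPM in mature neutrophils and 15.4 CPM in Csf1r-positive myeloid cells, S100a9 at 61314 and 289 CPM, and Retnlg at 5335 and 32.7 CPM. Macrophage genes were lowest. C1qa, a complement subunit, stood at 30.3 CPM in mature neutrophils and 643 CPM in Csf1r-positive myeloid cells, Mrc1, the mannose receptor, at 54.6 and 512 CPM, and Cd74, the invariant chain of class II molecules, at 219 and 1978 CPM. Of 9 tested specific granule genes 7 were higher and 1, Chil3, was lower, beside 5.43% and 48.4% of all tested genes. Of the 7 NADPH oxidase genes 3 were higher and 2 lower, and Cybb stood at 366 CPM in mature neutrophils and 1162 CPM in Csf1r-positive myeloid cells. Of 21 S and G2/M genes 18 were lower and 1 was higher, beside 48.4% lower over all tested genes. Set against all other kept cells, 780 of 15435 tested genes were higher (5.05%) and 7895 lower (51.1%). With deeper cells alone 967 were higher and 4730 lower. Leaving out cells changes which genes reach the minimum sum, so these counts are not set against those shares.

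The members were not uniform, and the levels of several genes, though not all, followed their Retnlg value. Retnlg was 0 in 277 members, 1 to 9 in 198, 10 to 49 in 191 and 50 or more in 148. S100a8 stood at 28573 CPM in members with Retnlg at 0 and at 82226 CPM in those at 50 or more, and S100a9 at 31539 and 123359 CPM. BC100530 stood at 4001 CPM at Retnlg 0 and 31075 CPM at 50 or more, and Lcn2 at 129 and 1302 CPM. Il1b ran the other way at 6693 and 4441 CPM, as did Gadd45b at 2154 and 928 CPM and Cxcr4 at 183 and 68.9 CPM. CPM are parts of a total of which S100a8 and S100a9 hold more at Retnlg of 50 or more. That lowers the CPM of other genes there. The scaling without abundant genes was not made for these groups, so no fall of Il1b, Gadd45b or Cxcr4 apart from this is read. Csf3r and Cxcr2, genes of the rule, had no single direction. Csf3r stood at 805 CPM at Retnlg 0, 930 CPM at 1 to 9 and 565 CPM at 50 or more. Cxcr2 stood at 300 CPM at Retnlg 0, 526 CPM at 10 to 49 and 471 CPM at 50 or more. Median detected genes were 1028 at Retnlg 0 and 930.5 at 50 or more, and 2266.5 and 1276 within deeper members. Csf1r and Lyz2 stood at 476 and 12036 CPM in the 66 deeper members with Retnlg at 0, against 430 and 8516 CPM in Csf1r-positive myeloid cells. Of these 66 cells 30 had 4 or more of the monocyte or macrophage markers. The 66 cells also had S100a8 at 10559 CPM and Csf3r at 427 CPM, where Csf1r-positive myeloid cells had Csf3r at 50.2 CPM. S100a8 and Csf3r are genes of the rule, so these levels only describe how the cells were chosen. Whether they are neutrophils, monocytes or mixed cells was not tested. Within deeper members S100a9 stood at 7055 CPM at Retnlg 0 and 109833 CPM at 50 or more, and within the other members at 41670 and 127425 CPM. Il1b within deeper members stood at 3346 CPM at Retnlg 0 and 3206 CPM at 50 or more, and Gadd45b at 806 and 828 CPM, so their order was not seen there. Cxcr4 within deeper members stood at 123 CPM at Retnlg 0 and 71.5 CPM at 50 or more.

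**Figure D4:**
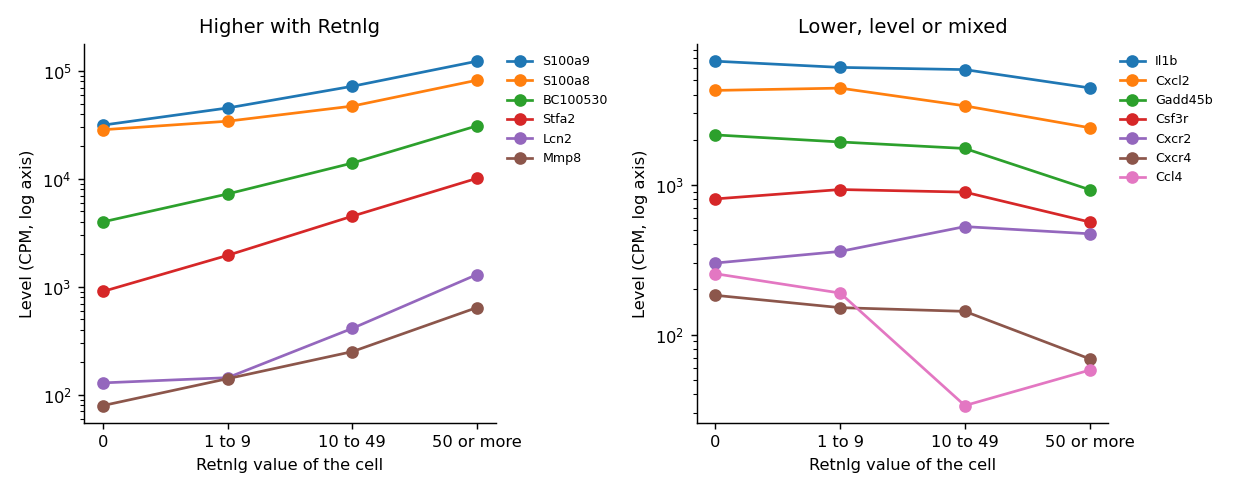
Level (y axis, CPM on a log axis) of 6 genes (left) and 7 genes (right) in members grouped by their Retnlg value (x axis). On the left every gene is higher at Retnlg of 50 or more than at 0, with S100a9 at 31539 CPM at 0 and 123359 CPM at 50 or more. On the right Il1b stands at 6693 CPM at 0 and 4441 CPM at 50 or more.

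Across the 814 members the calprotectin, stefin and antiprotease list correlated with the number of detected genes at a Spearman rho of -0.75. This is a description over cells of 1 library that share the depth correction. Ordered instead by the granule sum over all neutrophils, Il1b stood at 6273 CPM at a sum of 0 and 1029 CPM at 300 or more. Csf3r stood at 821 and 184 CPM, and Cebpe at 38.5 and 220 CPM. These levels too are not scaled without the abundant genes, which hold more of the total at high sums. Retnlg did not follow this order to its end. It stood at 3179 CPM at a sum of 0, was highest at a sum of 20 to 99 with 27617 CPM and stood at 12452 CPM at 300 or more.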

How the data were processed

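Single-cell values and bulk expression were read from the processed tables. Cell Ranger 5.0 and Seurat 3.2.2 are named for the single cells per the submitters' processing notes. For bulk, the same notes name mm10, featureCounts, HISAT2, Trim Galore and DESeq2. No genome build for single cells is named in the sources used here. The deposited single-cell values were treated as a score, UMI values corrected for depth, inferred from the values. The design had assumed raw counts, so no count model was run. For bulk the authors deposited an expected count and a TPM for each gene. Their FPKM values were not used. Bulk CPM scale the deposited expected counts to 1000000, at 171910584 reads in all.

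The members, the gene lists and the rule were chosen with earlier results of these data known. Cells are summed per class, log2 ratios add 1 CPM, and genes needed a summed value of 20 over both classes. A gene was called by size alone, where the log2 ratio was at least 1 or at most -1. The 14 genes of the rule were left out of these counts. Named genes were the 15 highest and 15 lowest ratios over immature neutrophils at 50 CPM or more, the 10 highest and 10 lowest over Csf1r-positive cells at 200 CPM or more, up to 4 genes of largest ratio and the 3 of highest level in each of 21 lists, and the genes of the rule. Other genes named in the text, such as Fcnb, Lyz2 in subsets and Sftpc, were chosen after their values were seen. Doublets were kept as the rule does, and predicted with Scrublet (scanpy 1.11.5, expected share 5%), which marked 480 of 10660 cells. The log2 ratio step alone was tested on simulated class sums with planted ratios. The rule, the depth correction and mixed cells were not simulated. Promoters are RefSeq windows on GRCm38.p6. Shares carry exact Clopper-Pearson intervals, which cover counting error only. The share of values at 1 and the leave-out of cells with 4 or more monocyte or macrophage markers were chosen after seeing the data.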

Additional observations from a re-analysis of the deposited data

Results flagged for a closer look

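Transcripts that were abundant in the members also appeared in the bulk library of sorted PDGFRA+ cells, a sample that no comparison of the members used. S100a9 stood there at 10.4 CPM (exact Poisson 95% interval 9.91 to 10.9), S100a8 at 3.88 CPM (3.59 to 4.19), Il1b at 21.2 CPM (20.6 to 21.9) and Retnlg at 1.54 CPM (1.36 to 1.73). All 4 lay above the limit that 3 reads allow, 0.0175 CPM. In the members S100a9 stood at 61314 CPM, Il1b at 5941 CPM and Retnlg at 5335 CPM. The granule genes Ngp, Ltf and Camp stood at 10.0, 5.055 and 1.77 CPM in bulk and at 140, 16.4 and 118 CPM in the members. The proportions of these genes in bulk thus differed from those in the members. Csf1r stood at 12.0 CPM in bulk, and Il1b is not particular to neutrophils, at 1324 CPM in Csf1r-positive myeloid cells. The intervals cover counting error only, the library has no control sample, and the source of these reads was not tested.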

How the results depend on the processing

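The number of members and their share of neutrophils kept their size under most alternatives. The share was 74.6% with the granule limit at 10, and without cells under 1000 detected genes there were 436 members at 70.8%. With deeper cells alone, an alternative chosen after seeing the data, there were 189 members at 48.6%. Of 7263 tested genes 3090 (42.5%) were then higher than in immature neutrophils. Against Csf1r-positive cells 1574 of 10576 tested genes (14.9%) were lower. Against all other cells 4730 genes were lower, with the number tested not given here. Against immature neutrophils, a pseudocount of 10 CPM gave 433 higher and 109 lower of the same 8553 tested genes. Scaling without the 5 abundant genes gave 646 (7.55%) and 453 (5.3%) of them. A minimum sum of 1 gave 2116 and 566, and a minimum of 100 gave 602 and 101. Those 2 settings change how many genes are tested, so their counts are not compared as shares. A pseudocount of 10 CPM gave 393 higher and 2249 lower of 11027 tested genes against Csf1r-positive cells. Against all other cells it gave 516 and 2897 of 15435. Cybb, lower over all members, had a log2 ratio of 0.075 in deeper cells, and Retnla, higher over all members, had -0.093 without the cells with 4 or more monocyte or macrophage markers. The cause was not tested. Of the list medians 405 values stayed within 1.5-fold and 15 moved. Of the named genes past a log2 ratio of 1, 2 reversed and 28 moved below it under the 2 alternatives added after seeing the data. Of the 70 members with 4 or more monocyte or macrophage markers, 67 are deeper cells. No paired analysis was possible because each group is 1 sample.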

Other observations

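Cd3d, which encodes a subunit of the T cell receptor complex, had a value in 49.1% of mature neutrophils (45.7% to 52.6%) and in 91.7% of immature neutrophils (87.4% to 94.8%), although Cd3e was at 0 in all of them by the rule. The share was 5.64% in Csf1r-positive myeloid cells, 12.0% in Cd79a-positive cells and 11.7% in other kept cells with Cd3e at 0. Trac had a value in 1.72% of mature and 1.25% of immature neutrophils, and Cd3g in 9.21% and 17.9%. In deeper cells Cd3d had a value in 54.0% of mature and 95.5% of immature neutrophils. By granule sum the share was 44.8% at 0, 57.9% at 1 to 19, 85.5% at 20 to 99 and 94.2% at 100 or more. On mm10 Cd3d lies on chromosome 9 from 44981786 to 44987339 on the plus strand, between Cd3g (44969572 to 44980431) and Cd3e (44998740 to 45009627), both on the minus strand (GENCODE M21).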
